A study of Mus musculus with 47 samples.

Results

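Of the 47 single-cell libraries of this mouse series, 6 held a large share of astrocyte transcripts and no read for GABA synthesis or vesicular loading. They were selected on their own reads, by a rule that asked for 0 reads on the GABAergic genes Gad1, Gad2 and Slc32a1 and for at least 2% of all reads on 7 astrocyte genes (Aqp4, Gfap, Aldh1l1, Slc1a3, Gja1, Slc1a2 and Aldoc). They were set beside 13 libraries of NPY-positive neurons of hippocampal area CA3. All 19 libraries came from brain slices of mice aged 3 to 8 weeks in which a green fluorescent protein marks neuropeptide Y (NPY) cells, named NPY-EGFP in the series text and both NPY-EGFP and NPY-hrGFP by the study. The cytosol of 1 cell at a time was drawn into a patch pipette and its polyadenylated RNA sequenced. By their labels all 6 were NPY-positive neurons, N10 of the auditory cortex (AC), N11 and N12 of the dentate gyrus, and N13, N17 and N22 of CA3. Slices were coronal for cortex and horizontal for hippocampus. In all 8 mice were used and none is named for any cell, so that each set of libraries counted as 1 sample, no test was made, and SDs describe the spread over libraries only.

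Astrocytes are glial cells that clear glutamate and potassium from around synapses, pass water and metabolites along the vessel wall, and are joined to each other by gap junctions. They supply neurons with glutamine and lipid particles and release proteins that shape synapses and the matrix around them. Their fine processes wrap the synapses and cell bodies of neighbouring neurons in the hippocampus and cortex.

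The NPY label of these cells was not matched by reads of Npy. Npy, the gene that the fluorescent label reports (GRCm38 chr6:49822710-49829507, plus strand), had 0 reads in each of the 6 libraries and 250 to 4684 reads per 1000000 reads of the library (CPM) in the 13 CA3 libraries. An Npy level of 0 in the 1259461 reads of the 6 libraries allows up to 2.38 CPM, at which it would be at least 613-fold lower than the mean of the CA3 libraries. Of 37 GABAergic and neurogliaform markers beside the genes of the rule, 6 had a read in any of the 6 libraries and 33 in CA3. Of 13173 genes read in any of the 19 libraries, 6773 were read in the 6. Apoe, which encodes the main lipid carrier that astrocytes release and was no part of the rule (chr7:19696109-19699188, minus strand), was read in all 6 at 38096 to 64331 CPM. As the rule chose libraries on GABAergic and astrocyte reads, these values describe them and are no independent evidence of what the cells were. The name astrocyte-like is used here for these reads, not for the shape or the physiology of the cells.

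The 7 genes of the rule took 3.11% of the reads in N10, 3.13% in N13, 3.37% in N12, 3.495% in N22, 3.72% in N17 and 3.78% in N11. The exact 95% binomial interval of the lowest was 3.05 to 3.17% and of the highest 3.65 to 3.90%, which cover counting error only. Just outside the rule lay N4X and N4 of AC with 0.303% and 0.302%, and both had reads on the GABAergic genes. These columns may be 1 cell, since their log2(CPM + 1) had r = 0.997 across genes, against 0.507 at most between N4 and any other column. Among the 13 CA3 libraries the share ran from 0 to 0.0660%. No library lay between 0.303% and 3.11%, so the same 6 were found at a limit of 1%, and none at 5%. These values chose the libraries and are given as a description. Within the 7 genes the 6 libraries were unlike. Aldoc, a glycolytic aldolase, and the glutamate transporters Slc1a2 and Slc1a3 were read in all 6. Aqp4, the water channel of the vessel-facing endfeet, and Gja1, a gap junction connexin, were at 0 reads in N11. Aldh1l1, an enzyme of folate metabolism, was read in N11, N12, N13 and N22. Gfap, the intermediate filament that names fibrous and reactive astrocytes, was read in N13 at 539 CPM and in N22 at 804 CPM, both of CA3, and had 0 reads in the other 4.

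The 6 libraries were shallow. They held 89297 (N11), 125392 (N17), 190573 (N12), 216935 (N13), 305965 (N22) and 331299 (N10) reads, against 2229519 to 7949918 in the CA3 libraries. Every library was therefore thinned at random to 80000 reads, and the level of a gene is log2(thinned reads + 1), averaged over 20 draws. At that depth 612 genes were detected in N17, 643 in N11, 2198 in N10, 2914 in N12, 2973 in N13 and 3130 in N22. The CA3 libraries had 3048 to 6593, so that only N22 reached into their range. The mean was 2078 ± 1169 (SD, n = 6) against 4652 ± 1021 (SD, n = 13) detected genes.

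N11 and N17 stood apart from the other 4. They were the libraries with the fewest genes, 647 and 633 before thinning, and fell under the limit of 844 genes that the study's own filter sets on this table. The mitochondrial genome took 12.2% of the reads in N11 and 11.5% in N17, 2.30 to 3.24% in the other 4 and 0.371 to 2.23% in the CA3 libraries. N11 also held reads of other cell types. Its share on 7 myelin genes was 3.91%, while the other 5 libraries ran from 0.0134 to 0.252% and the CA3 libraries from 0 to 0.104%. In N11, Mbp, which encodes myelin basic protein, reached 37213 CPM and Snap25, a synaptic vesicle fusion protein of neurons, 3315 CPM, and Snap25 had 0 reads in the other 5. The part of these transcripts in the results below was not tested, and the counts of the main lists are given with and without N11 and N17.

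**Figure D1:**
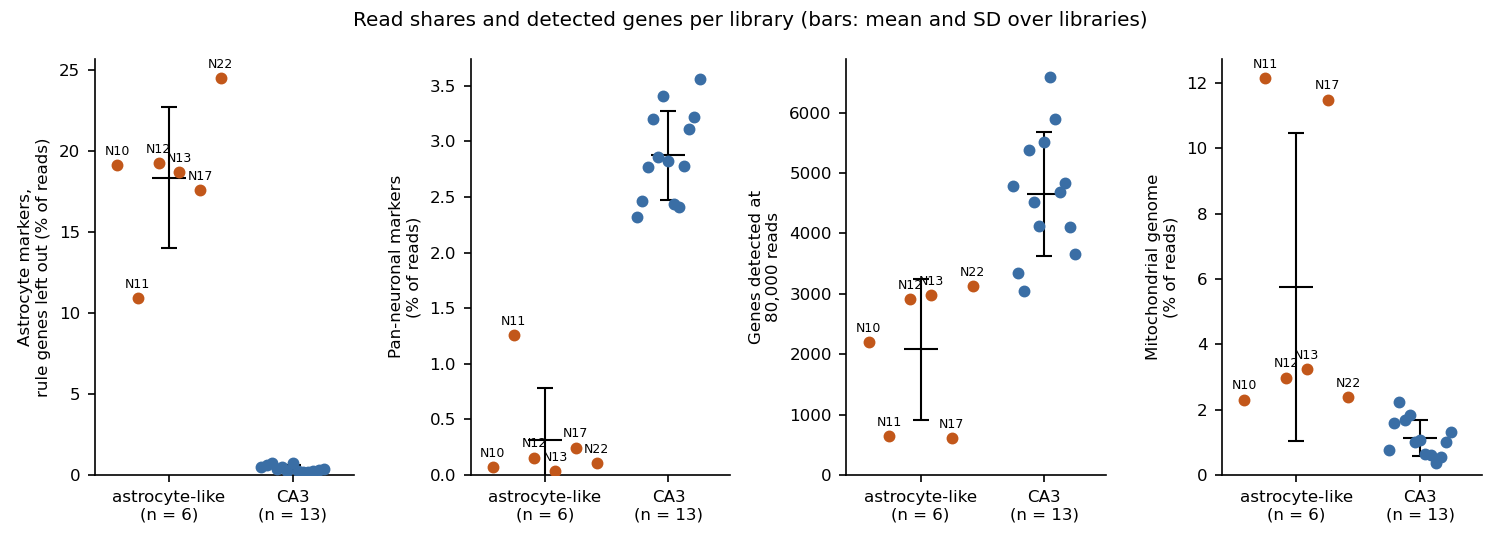
Share of reads on astrocyte markers and on pan-neuronal markers (percent), genes detected after thinning to 80000 reads, and share of reads on the mitochondrial genome (percent), 1 point per library, with the mean and SD of the 6 astrocyte-like and 13 CA3 libraries as bars. Astrocyte markers took 10.9% of the reads or more in each of the 6 and at most 0.742% in CA3, and N11 and N17 show the fewest genes and the highest mitochondrial shares.

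Compared with the CA3 neurons, 270 of 9057 genes (2.98%) were higher in the 6 libraries by at least 2 in mean level, which is 4-fold on this scale, and 1478 (16.3%) were lower. The genes compared had a read in at least 4 of the 19 libraries and were no part of the rule. Over all of them the median difference was -0.80. These counts depended on the thinning, the scaling, the members and the pseudocount. The higher genes ran from 87 with a pseudocount of 10 to 1026 with scran factors. The lower genes ran from 110 with that pseudocount to 5615 with DESeq2 factors. Both kinds of factor were applied to unthinned reads, and scran gave none for N11 and N17. With CPM and no thinning, 451 genes were higher and 4450 lower. In 35 genes (0.386%) the lowest astrocyte-like library was above the highest CA3 library, and in 170 (1.88%) the highest was below the lowest. Of the 35 genes, 34 were also past the 4-fold limit, the exception being the creatine kinase Ckb, and 8 had 0 reads in all 13 CA3 libraries. Of the 170, 107 had 0 reads in all 6. A gene read in the astrocyte-like libraries alone had to be read in at least 4 of the 6 to be compared. Without N11 and N17, 444 genes (4.92%) were higher and 1301 (14.4%) lower, and 174 were higher and 218 lower in every library.

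Of the 35 genes, 19 were on a list of 72 textbook astrocyte markers. After Apoe (mean level 11.83 ± 0.30 in the 6 libraries and 1.51 ± 2.08 in CA3) the largest difference was that of Gpr37l1, an astrocyte receptor coupled to G proteins (chr1:135160234-135167681, minus strand). It ran from 2206 through a median of 5507 to 9354 CPM and had 0 reads in CA3, an amount at least 92519-fold higher when CA3 is set at 3 reads over its 13 libraries. Ppap2b, the lipid phosphatase now named Plpp3, and Ntsr2, a neurotensin receptor, were likewise at 0 in all CA3 libraries and at medians of 6670.1 and 4169 CPM in the 6. Pla2g7, which encodes a secreted phospholipase, ran from 1501 to 16069.6 CPM, with a CA3 highest of 14.2. Slc39a12, a zinc importer, Hepacam, an adhesion protein of glia, Acsbg1, which activates long fatty acids, and the sphingosine phosphate receptor S1pr1 also had 0 reads in CA3. The remaining one of the 8 was Fxyd1, a regulator of the sodium pump, at 81.5 to 885 CPM. The 35 also held genes that neurons express, among them Actb, Dpysl2 and Tspan7, whose differences were 2.65, 3.41 and 3.72, and the mitochondrial genes mt-Cytb and mt-Co1. For the last pair N17 was the highest library and N11 the next, at 39046 and 23685 CPM for mt-Cytb, but the other 4 were still above the highest CA3 library.

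Of 62 astrocyte markers compared, 54 were higher by 4-fold and none lower, with a median difference of 4.52 against -0.80 for all genes, and 19 did not overlap between the groups. Genes with 0 reads in CA3 numbered 22. When their groups are set at 3 reads, the median log2 ratio of mean CPM was 8.81 for the markers and -1.69 for all genes. Without N11 and N17, 56 of 61 were higher and 48 did not overlap. The markers took 10.9% (N11) to 24.5% (N22) of the reads in the 6 libraries and 0.165 to 0.742% in CA3. Because the libraries were selected on astrocyte reads and on the lack of GABAergic reads, these counts, and those of neuronal genes, are a description and no independent evidence of what the cells were. The counts of each list by role are to be set against the shares of all genes, 2.98% higher and 16.3% lower, or 4.92% and 14.4% without N11 and N17. This is 1 of several lists chosen with earlier results of these data known, and it shares members with the lists by role below.

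Of 20 genes of ion and water balance 14 were higher and none lower, with a median difference of 2.78, and 14 of 19 were higher without N11 and N17 (all genes 2.98% and 4.92% higher). Atp1b2, a beta subunit of the sodium pump, ran from 478 to 2451 CPM, and the highest CA3 library had 178. Mlc1, a membrane protein of the endfeet, was highest in N11 at 4771 CPM, had 0 reads in N17 and was not read in CA3. The connexin Gjb6 and the claudin Cldn10 were read in N10, N12, N13 and N22 and in neither N11 nor N17. Kcnj10, the potassium channel that sets the resting potential of astrocytes, was read in N10 alone, at 709 CPM, and 1 CA3 library had 29.1 CPM.

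**Figure D2:**
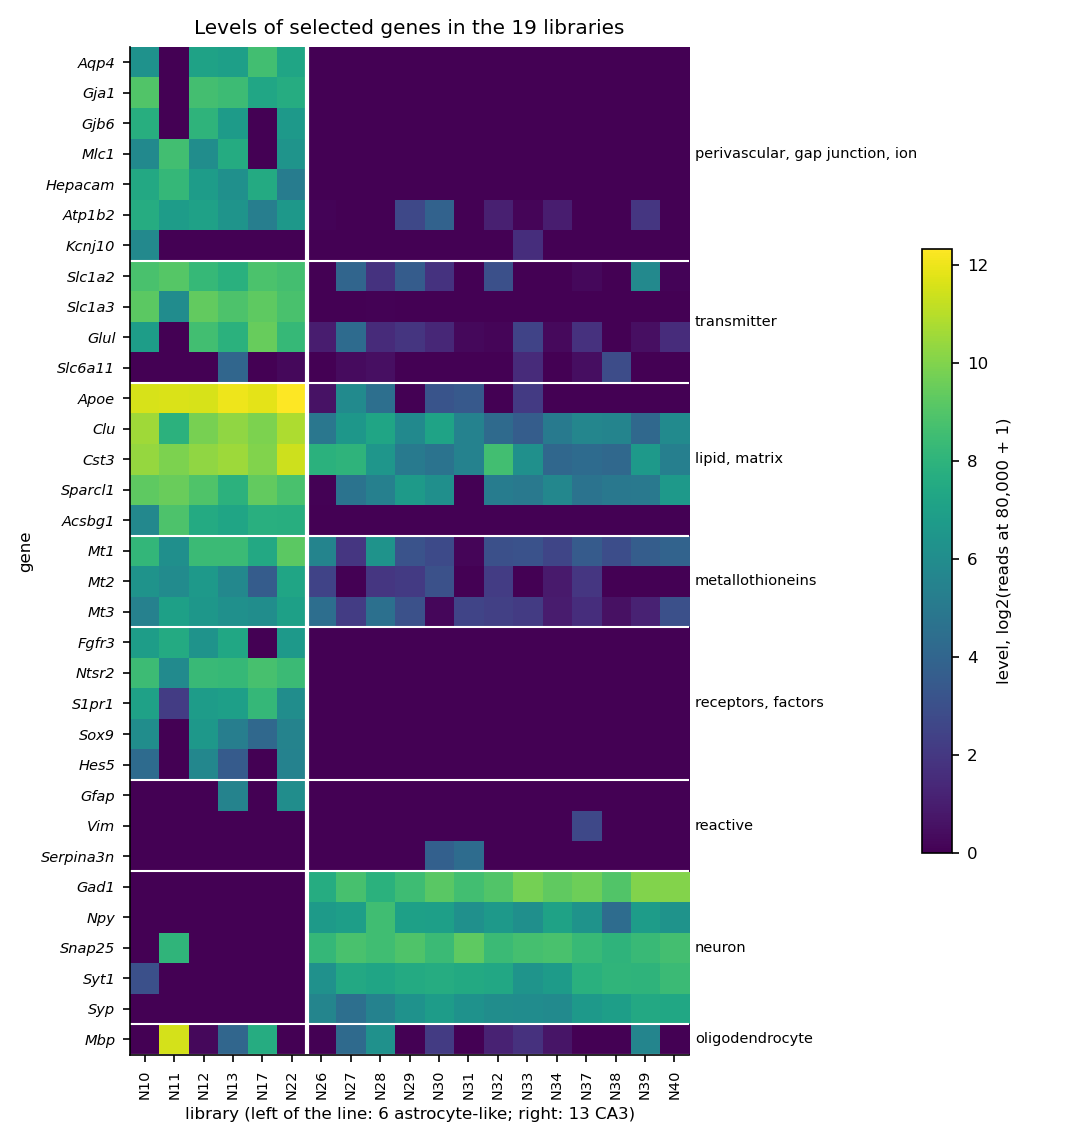
Level of 33 genes (rows, grouped by role, log2 of reads at 80000 plus 1, colour) in the 6 astrocyte-like and 13 CA3 libraries (columns). Apoe is bright in all 6 on the left and Gad1, Npy and Syp are at 0 there, while N11 lacks Aqp4, Gja1, Glul and Sox9 and has Mbp and Snap25.

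Of 20 genes that take up and convert transmitters, 5 were higher by 4-fold and 2 lower, where 2.98% and 16.3% of all genes were. Without N11 and N17, 6 were higher and 2 lower. The median was 0.31 and turned to between -0.63 and -0.02 under 7 other settings. Glul, the glutamine synthetase that turns captured glutamate into glutamine, was at 1425 CPM in N10, 2964 in N13, 3749 in N22, 4833 in N12 and 8772 in N17, at 0 in N11 and at 235 at most in CA3. The serine and glycine exchanger Slc7a10 had the same gap in N11 and 1959 to 4865 CPM in the other 5. The mitochondrial glutamate carrier Slc25a18 and the glutamine transporter Slc38a3 had no read in CA3. The astrocyte GABA transporter Slc6a11 was read in N13 at 217 CPM and in N22 by 1 read, and in 6 of the 13 CA3 libraries at up to 82.3 CPM (difference 0.28). On the other side were Got1, an aspartate aminotransferase, with a difference of -5.70, and the GABA transaminase Abat with -4.10.

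Lipid genes followed Apoe in part. Of 36 compared, 15 were higher and 1, Hmgcs1 of sterol synthesis, lower, with a median of 1.13, and 17 were higher and none lower without N11 and N17, beside 2.98% higher and 16.3% lower of all genes. Clu, an extracellular lipid carrier and chaperone, ran from 3057 in N11 to 22467 CPM in N22, above the CA3 highest of 1985. Prdx6, which reduces phospholipid peroxides, was at 2943 to 7645 CPM against 347 at most. Acsbg1 was at 670 CPM in N10 and 5846 in N11.

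Of 30 energy genes compared, 4 were higher and 5 lower by 4-fold, the second a share near the 16.3% of all genes, and 9 were higher and 2 lower without N11 and N17. The median was 0.83, and -0.96 over genes read in at least 10 libraries. The higher genes were the glucose transporter Slc2a1 (difference 4.45), the glycogen phosphorylase Pygb (3.62), and Ech1 and Acaa2 of fatty acid breakdown (2.36 and 2.11). Among the lower were the mitochondrial creatine kinase Ckmt1 (-3.83) and the pyruvate kinase Pkm (-3.42). Ldha, which makes lactate, was read in N13 at 2632 CPM and in N22 at 601 and in no other of the 6. Its difference in level was -2.17, but -1.06 without N11 and N17 and 0.056 with the CA3-labelled members alone, and its mean was 539 CPM in the 6 against 347 in CA3. Of 36 subunits of respiratory complex I, encoded in the nucleus, none was higher and 12 were lower, and 8 were lower without N11 and N17, against 16.3% and 14.4% of all genes. Their median was -1.78, and 0.18 against AC libraries.

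Secreted and matrix genes were higher in 19 of 33, with 1 lower and a median of 3.01, and in 21 of 31 with 1 lower without N11 and N17, where 2.98% and 4.92% of all genes were higher. Cst3, which encodes the protease inhibitor cystatin C, ran from 11870.5 to 33161 CPM, with a median of 15921, against 205 to 4690.1 in CA3. Sparcl1, which astrocytes release to promote synapses, was at 3010.1 to 8992 CPM against 1309.6 at most. Mfge8, a bridging protein for phagocytosis, the protease Htra1, the lectican Bcan and the protease inhibitor Serpine2 were read in 5 libraries at 2018 CPM or more and had 0 reads in N11. Thbs4, Thbs2 and Chrdl1, also known as secreted astrocyte proteins, had no read in the 19 libraries. Timp4 overlaps Syn2 and Timp3 overlaps Syn3 on the opposite strand. The sources used here do not say whether counting used the strand, so the difference of 2.44 for Syn3, otherwise a synapsin of neurons, cannot be told apart from reads of Timp3.

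Receptors and signalling genes were higher in 17 of 29 and lower in 3, with a median of 2.42, and higher in 16 of 27 and lower in 2 without N11 and N17. Of all genes 2.98% were higher and 16.3% lower. The median turned to -0.62 over genes read in at least 10 libraries, a filter that leaves out genes read in the 6 alone. Beside Gpr37l1, Ntsr2 and S1pr1, Fgfr3, a fibroblast growth factor receptor, was read in 5 libraries at 976 to 2340.5 CPM, in none of CA3 and not in N17. Ntrk2, the receptor of brain-derived neurotrophic factor, was at 1407 to 5017 CPM, above the 697 of the highest CA3 library. The metabotropic glutamate receptor genes went apart, Grm3 with a difference of 3.86 and Grm5 with -3.97. The GABA-B receptor genes Gabbr1 and Gabbr2 had differences of -2.07 and -4.01, whereas the GABA-A subunits Gabrb1 and Gabrg1 had differences of 2.38 and 2.56. Gabrg1 was read in N10, N12, N13 and N22 at 359, 10.5, 360 and 902 CPM. Among 24 ionotropic receptor genes 11 were lower and 3 higher (16.3% and 2.98% of all genes), the third being the NMDA subunit Grin2c.

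Transcription factors were read for the most part in N10, N12, N13 and N22. Of 23 compared, 7 were higher and 1 lower, with a median of 0.90, and 9 of 22 were higher and none lower without N11 and N17 (of all genes 4.92% and 14.4%). The median was -0.46 with the CA3-labelled members alone and -0.06 without N13. Sox9, the factor that specifies glia, was at 776 CPM in N10, 1139 in N12, 475 in N13, 215 in N17 and 562 in N22, and at 0 in N11 and in all CA3 libraries. The Notch target Hes5 was read in N10, N12, N13 and N22 at 129 to 624 CPM. N11 had no read on any of the 38 factors listed, and N17 had reads on 4 of them. Id2 did not separate the groups, at 120 to 6059.5 CPM in 5 libraries and 591 to 8824 in CA3.

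Metallothioneins, small proteins that bind zinc and copper, had 3 members that were higher by 4-fold, of which Mt2 and Mt3 did not overlap between the groups. Mt1 ran from 873 (N11) through a median of 3883 to 7566 (N22) CPM, against 2.23 to 1034 CPM in CA3, so that N11 overlapped the highest CA3 library. Mt2 was at 136 (N17) to 1889 (N22) CPM against 93.3 at most. Mt3, the brain member, was at 528 to 1590.2 CPM against 5.01 to 267. Mt4 had no read in the 19 libraries. With the 2 glutathione transferases Gstm1 and Gstm5, Prdx6 and the cystine carrier Slc7a11, 7 of 21 metallothionein and redox genes were higher. Another 5 were lower, Txn1, Ftl1, Sod2, Gpx4 and Fth1, with differences of -2.29 to -2.12, close to the limit of -2. Without N11 and N17, 8 were higher and 1 lower. The median was -0.77, and 1.15 against AC libraries, and 16.3% of all genes were lower. Metallothionein promoters are known for metal response elements (MREs), short sites that recruit a zinc-sensing factor. Since the 3 genes were higher together, their promoters are shown, 250 bases before to 30 after the RefSeq start on GRCm38.p6, all on the plus strand, at chr8:94178839-94179118 for Mt1, chr8:94172368-94172647 for Mt2 and chr8:94152357-94152636 for Mt3. Capitals mark the letters TGCGCNC or TGCACNC, with N for any base, on either strand.
Mt1: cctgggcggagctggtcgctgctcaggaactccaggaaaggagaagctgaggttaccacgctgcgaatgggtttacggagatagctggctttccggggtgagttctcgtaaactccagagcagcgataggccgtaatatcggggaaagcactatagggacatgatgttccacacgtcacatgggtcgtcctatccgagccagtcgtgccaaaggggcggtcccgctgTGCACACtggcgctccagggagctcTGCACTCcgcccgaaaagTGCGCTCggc
Mt2: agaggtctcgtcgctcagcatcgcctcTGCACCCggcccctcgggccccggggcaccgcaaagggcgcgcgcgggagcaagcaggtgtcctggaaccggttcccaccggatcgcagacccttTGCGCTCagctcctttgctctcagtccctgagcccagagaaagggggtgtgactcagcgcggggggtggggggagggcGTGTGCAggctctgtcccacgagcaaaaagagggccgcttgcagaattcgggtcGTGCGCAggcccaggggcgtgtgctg
Mt3: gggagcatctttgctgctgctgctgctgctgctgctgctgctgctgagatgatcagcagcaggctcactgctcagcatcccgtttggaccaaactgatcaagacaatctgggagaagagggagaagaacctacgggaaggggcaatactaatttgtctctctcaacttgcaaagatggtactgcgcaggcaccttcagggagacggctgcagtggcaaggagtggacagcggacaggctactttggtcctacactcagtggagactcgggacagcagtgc
The search found 3 matches in Mt1, 4 in Mt2 and 0 in Mt3. Of 32851 promoter windows of this length 24.1% held at least 1 match, 1.73% at least 3 and 0.405% at least 4. A window was at hand for 23 of the 35 genes without overlap, and 11 of these held a match, against 26.6% of all genes with a window. A match is a stretch of letters and says nothing of binding in these cells.

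Of 38 reactive astrocyte genes, 7 had a read in any of the 6 libraries and 17 in CA3. These counts are without thinning, from 1259461 reads in the 6 and 48858038 in CA3. Of 13173 genes read in any of the 19 libraries, 6773 were read in the 6. The part of depth in the lower count was not tested. Vim, the filament that accompanies Gfap in reactive cells, and the acute phase gene Serpina3n had 0 reads in all 6, and in CA3 1 and 2 libraries had reads. Stat3, read in N22 alone at 45.8 CPM, and H2-D1, by 1 read in N22, were the pair with enough libraries to be compared, at differences of -1.28 and -1.29. Neural stem cell genes took 0 (N11) to 0.173% (N17) of the reads in the 6 and 0.0232 to 0.126% in CA3, and of 8 compared 1 was higher and 1 lower (of all genes 2.98% and 16.3%). The higher one, Fabp7, a fatty acid binding protein also of mature astrocytes, was read in 5 libraries at 144 to 1731 CPM and not in CA3. Nes had no read in the 19 libraries. A count of 0 in 1 of the 6 libraries allows up to 3 reads, which is 9.06 to 33.6 CPM by library.

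All 13 genes listed whose RNA is known from the fine processes of astrocytes at synapses were read in the 6 libraries together and in CA3. They took 0.774 to 1.52% of the reads in the 6, 0.275 to 0.487% in CA3 and 1.22 to 2.90% in the myelin-rich libraries below. By 4-fold 5 were higher and 1 lower, against 2.98% and 16.3% of all genes. The median difference was -0.18, 1.38 without N11 and N17 and above 0 under 8 settings in all. The median log2 ratio of mean CPM was 0.59, of the other sign. The higher genes were Glul, the membrane protein Gpm6b (difference 3.99), Grm3, the cytoskeletal linker Ezr (3.17) and Actb.

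Neuronal transcripts were low but not absent. Of 29 pan-neuronal markers 26 were lower by 4-fold and none higher, with a median of -4.15, and 13 did not overlap. Without N11 and N17, 26 were lower and 17 did not overlap. Of all genes 16.3% were lower, or 14.4% without N11 and N17, and 1.88% were lower in every library. The pan-neuronal markers took 0.0332% (N13) to 0.245% (N17) of the reads in 5 libraries and 1.26% in N11, against 2.32 to 3.56% in CA3. Serpini1, which encodes the protease inhibitor neuroserpin, had 0 reads in the 6 and 226 to 8009 CPM in CA3. The long noncoding RNA Snhg11, the vesicle proteins Cplx1 and Syp and the receptor gene Gria1 were also at 0 in the 6 and read in every CA3 library. Syt1, the calcium sensor of vesicle release, was read in N10 alone, at 93.6 CPM against 889 to 4339. Vamp2, a vesicle protein also found in glia, was read in all 6 at 9.22 to 1707 CPM. Of 25 vesicle release genes 16 were lower and 1, Syn3, higher, and as many were without N11 and N17. Of 25 channel genes for sodium, potassium and calcium that open with voltage, 8 were lower and 24 had no read in the 6. The exception was Kcnd2 in N13 at 230 CPM. Of all 9057 genes 3324 had no read in the 6. Of 26 GABAergic and neurogliaform markers 14 were lower and none higher, 13 without N11 and N17, and Lamp5, Lhx6 and Reln had 0 reads in the 6.

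**Figure D3:**
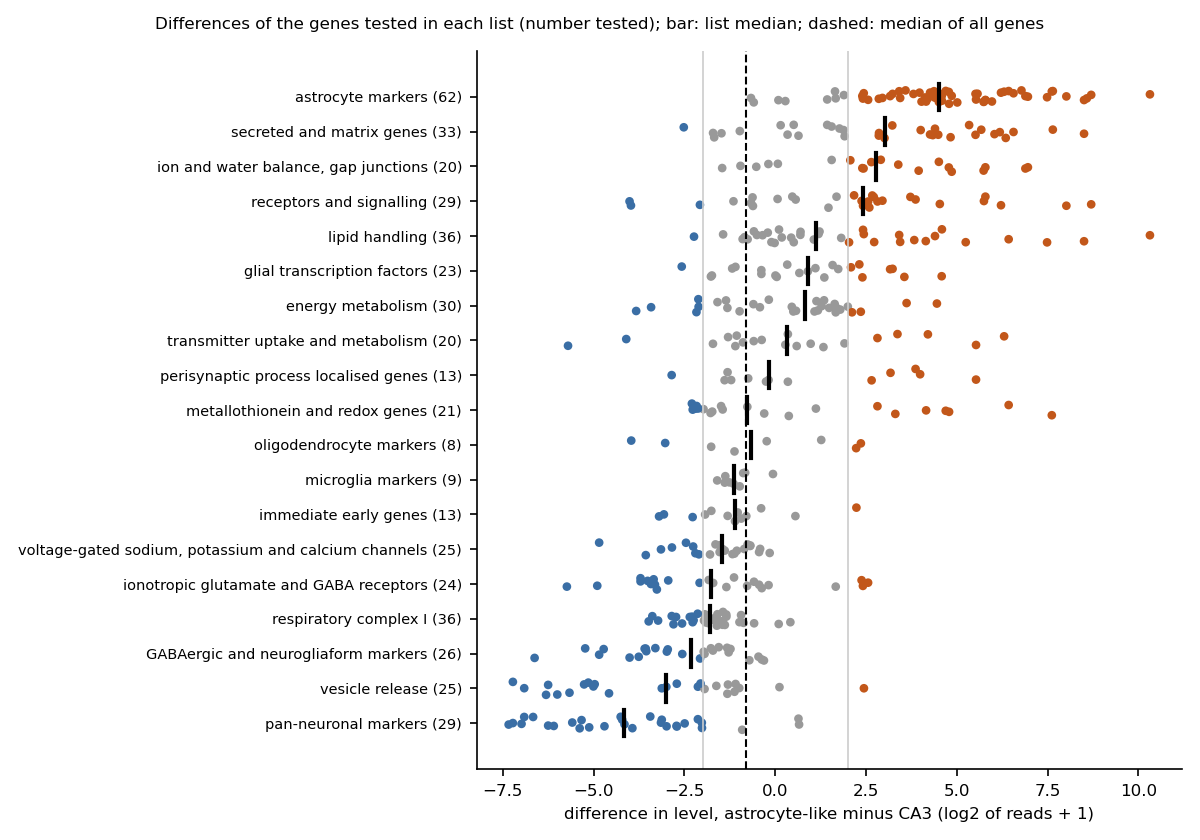
Difference in mean level, astrocyte-like minus CA3 (log2 of reads plus 1, horizontal axis), of each gene compared, 1 point per gene, in 19 lists (rows). Black bars are list medians, the dashed line is the median of all genes at -0.80, and orange and blue points are genes past 2 and -2. Medians run from 4.52 for astrocyte markers to -4.15 for pan-neuronal markers.

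Markers of other cell types gave a smaller and uneven share. Oligodendrocyte markers took 0.0703 to 0.254% of the reads in 5 of the libraries and 3.91% in N11, against 0.0620 to 0.248% in CA3. Of 8 compared 2 were higher and 2 lower (2.98% and 16.3% of all genes), and 1 was higher and 2 lower without N11 and N17. Mbp was read in N11, N17 (2520.1 CPM), N13 (207) and N12 (5.25), with a difference of 2.23, and of -0.61 without N11 and N17. Microglia markers were at most 0.0380% and C1qa and Csf1r had 0 reads, as had the endothelial genes Cldn5, Flt1 and Pecam1 and the ependymal genes Foxj1 and Ttr. On the same 2 lists, Mfsd2a, a lipid transporter of the vessel wall, was read in 4 of the 6 and in no CA3 library (difference 3.36), and Rarres2, which encodes the chemoattractant chemerin, in 3 of the 6 and in 1 CA3 library (2.36). Endothelial markers took up to 0.0673% of the reads in the 6 and up to 0.0586% in CA3, and ependymal markers up to 0.0638% and 0.000663%. Of oligodendrocyte precursor markers Olig1, a factor that some astrocytes also express, was read in 4 libraries at 136 to 797 CPM, and Pdgfra was read in N13 alone, at 286 CPM, where 9 of the 14 markers had a read. Camk2a, a kinase of pyramidal cells, had a difference of 2.80, and of 1.14 without N11 and N17, from N11 and N17 at 2352 and 1818 CPM and from N12 and N13 at 231 and 475. Pyramidal and granule cell markers took 0.330% of the reads in N11 and 0.182% in N17. They took 0.0710% in N13, 0.0438% in N10, 0.0231% in N12 and 0.0036% in N22, against 0.0275 to 0.334% in CA3 with a median of 0.0452%. The vesicular glutamate transporters Slc17a7 and Slc17a6 had no read in the 6 and at most 13.9 and 0.834 CPM in CA3.

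The immediate early genes, which activity or dissection can induce, differed among the 6. They took 0.910% of the reads in N22 and 0.325% in N10, but 0.0945% or less in the other 4, and 0.0624 to 0.528% in CA3. Jun was at 1678 CPM in N10 and 2236 in N22, and Fos at 2631 in N22, 331 in N12, 244 in N13 and 7.97 in N17. Of 13 compared, 1 was higher and 3 were lower, where 2.98% and 16.3% of all genes were.

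A further 4 libraries had no GABAergic read and at least 2% of their reads on the 7 myelin genes (N15, N18 and N23 of CA3 and the NPY-negative N16), limits that N11 also passed. Of the 35 genes without overlap, 23 were also higher in each of the 6 than in any of these 4. They included Apoe (lowest of the 6 at 38096 CPM, highest of the 4 at 8216), Clu (3057 and 389), Cst3 (11870.5 and 215) and Ntsr2 (728 and 0). The others were not. Actb reached 24719 CPM, Dpysl2 5826 and Gpr37l1 3245 in the myelin-rich libraries, against lowest values of 2180.4, 366 and 2206 CPM in the 6.

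Among themselves the 6 had lower correlations than the neurons. Across the 9057 genes, which are no independent replicates, Pearson's r of the levels was 0.199 to 0.446 in the 15 pairs of astrocyte-like libraries, 0.326 to 0.639 in the 78 pairs of CA3 libraries and 0.0771 to 0.213 in the 78 mixed pairs. The 6 pairs among N10, N12, N13 and N22 had 0.383 to 0.446, although these cells came from AC, dentate gyrus and CA3, and N11 had at most 0.232 and N17 at most 0.286. N11 and N17 were also the libraries with the fewest genes, whose part in these values was not tested. Of 6773 genes read in any of the 6, 92 were read in all and 3232 in 1 alone. The genes that varied most among the 6 were read at high levels in some and not in others. Map1b and Map1a, which encode proteins of neuronal microtubules, were at 4939 and 3012 CPM in N11 and 2967 and 2448 in N17, and at 5.25 CPM or less in the other 4. Sat1, of polyamine breakdown, was at 1724 to 3327 CPM in N10, N12, N13 and N22 and at 0 in N11 and N17. Tsc22d3, a glucocorticoid target, was at 1226 to 3509 CPM in N12, N13, N17 and N22 and at 0 in N10 and N11.

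**Figure D4:**
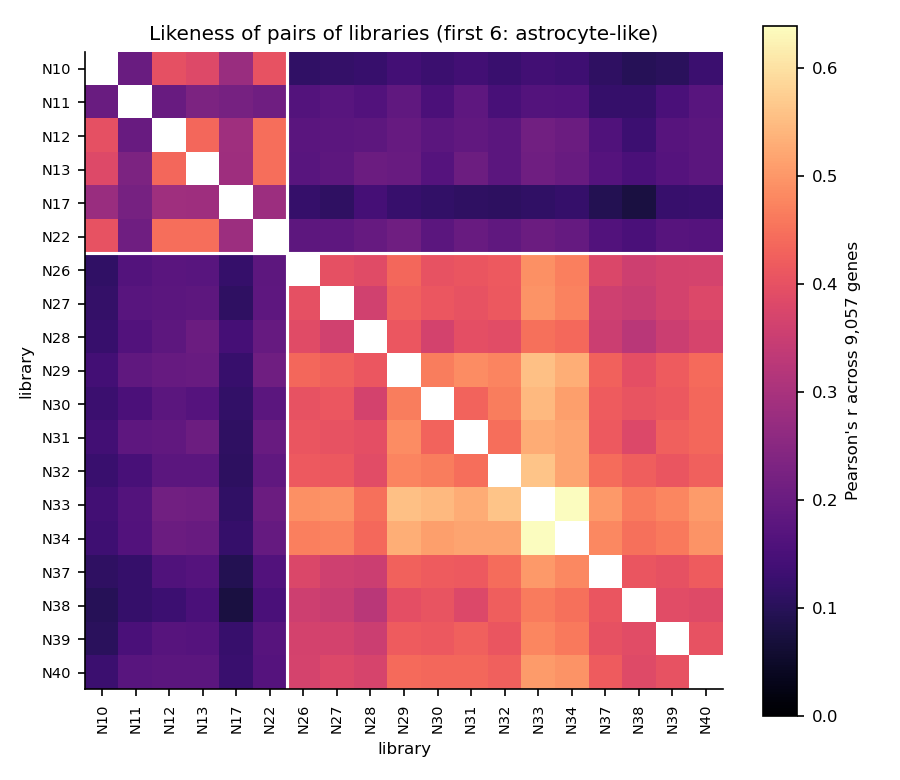
Pearson's r of levels across 9057 genes (colour) for each pair of the 19 libraries, the 6 astrocyte-like first. The block of N10, N12, N13 and N22 stands at 0.383 to 0.446, mixed pairs are at 0.213 or below, and the pairs of N11 with the other 5 are at 0.232 or below.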

How the data were processed

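The deposited table held raw read counts per gene symbol for 47 cells, which the authors made with Trimmomatic, STAR and GRCm38. The paper names HTSeq and the submitters' processing notes featureCounts, and strand is not given in the sources used here. Members and gene lists were chosen with earlier results of these data known. Each library was thinned to 80000 reads in 20 draws (seed 1). A gene was compared if read in at least 4 of 19 libraries, and called at a difference of at least 2. CPM are counts per 1000000 reads of all genes, and floors are 3 reads. Named were the 10 selection genes, Apoe, the 12 largest differences without overlap in each direction, leading and most varying list members, 2 markers of each other cell type, and the 10 largest SDs. Other genes named were chosen after their values were seen, among them mt-Co1, mt-Cytb, Mt1, Slc6a11, Kcnj10, Got1, Abat, Gabbr1, Gabbr2, Grm5, Vim, Serpina3n, Nes and the rest of the 35 genes without overlap. Some genes are not reported here. Totals of 89297 to 331299 reads limited precision. Alternatives covered depth, normalization (scran 1.30.0, TMM of edgeR 4.0.16, DESeq2 1.42.0, in R 4.3.3), filters, pseudocounts, members and comparison libraries. The thinning and the calls were tested on simulated data with Python 3.11.15, numpy 2.4.6 and pandas 2.3.3.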

Additional observations from a re-analysis of the deposited data

Results flagged for a closer look

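Of 164 measures over the 6 astrocyte-like libraries, 47 had 1 library far from the other 5 by Dixon's criterion, which chance gives in about 1 of 20 such groups. Many of the genes were named because they varied among the 6 or led a list, and for those this rate is no measure. Nor is it one for measures above 0 in 1 library alone, such as Syt1, Kcnj10 and H2-D1, which the criterion always flags. By library the flagged measures numbered 22 in N11, 8 in N22, 7 in N13, 5 in N10, 4 in N17 and 1 in N12. Levels are log2(reads at 80000 + 1).

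N11 was highest in the share of reads on 7 myelin genes and on oligodendrocyte markers (both 3.91%), pan-neuronal markers (1.26%), vesicle release genes (0.466%) and complex I (1.79%), and in the levels of Snap25 (8.06) and Camk2n1 (5.78). It was lowest in the share on receptors and signalling genes (2.24%) and in the levels of Clu (7.94), Slc1a3 (6.02), Ntsr2 (5.91) and S1pr1 (2.20). Its level was 0 for Aqp4, Gja1, Mfge8, Htra1, Slc7a10, Glul, Pygb, Sox9, Bcan and Serpine2. N17 was lowest, at a level of 0, in Mlc1, Fgfr3 and Gpm6b, and highest in Igfbp2 (8.25).

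N13 was highest in the shares on reactive astrocyte genes (0.0632%) and on voltage-gated channels (0.0230%), and in the levels of Pdgfra (4.59), Ndufa10 (4.41), Ociad2 (4.23), Kcnd2 (4.23) and Slc6a11 (4.08). N10 was highest in microglia markers (0.0380%) and in mural and fibroblast markers (0.000302%, 1 read), and in Kcnj10 (5.78), Stmn3 (4.81) and Syt1 (3.00). N22 was highest in immediate early genes (0.910%), and in Gsn (4.54), Hopx (3.32), Dner (2.25), Stat3 (1.93), Nap1l5 (1.53), Fcer1g (0.30) and H2-D1 (0.15). N12 was highest in Prdx6 (9.26).

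Outside the 19 libraries, 7 other columns, of which N4 and N4X may be 1 cell, had a larger share of reads on the 7 astrocyte genes of the rule than the highest CA3 library (0.0660%). The share was 0.303% in N4X, 0.302% in N4, 0.168% in N1, 0.149% in N14, 0.112% in N46, 0.101% in N42 and 0.0759% in N47. Of these, N14 had 0 reads on Gad1, Gad2 and Slc32a1, in 111958 reads.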

How the results depend on the processing

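The 6 libraries are few and shallow, and N11 and N17 hold few genes. Of 3680 values of 184 named genes under 20 settings, 3002 moved by less than the spread over libraries and 675 by more. Of the 125 genes with a difference of at least 2, 3 of 2500 values changed sign, and of the other 59 genes 81 of 1180 did. The 3 were Ldha with the CA3-labelled members alone (0.056) and Mbp with scran (-0.82) or without N11 and N17 (-0.61). Of 8 list medians of at least 2 in size, receptors and signalling turned to -0.62 over genes read in at least 10 libraries. Of the 17 smaller ones 7 turned under 1 setting or more, the perisynaptic list under 8 (up to 2.29), transmitter genes under 7, endothelial markers under 6, transcription factors under 2, and energy, redox and complex I genes under 1 each. Where a cause of such a change is not given by the setting itself, the cause was not tested. No paired analysis was possible because the labels give no number shared between groups and no test was made.

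Genes higher by 4-fold numbered 451 without thinning, 1026 with scran (factors for 4 of the 6), 461 with TMM, 90 over genes read in at least 10 libraries, 87 and 463 with pseudocounts of 10 and 0.1, 444 without N11 and N17 (chosen after seeing the data), and 587 and 135 at differences of 1 and 3. Genes lower by 4-fold numbered 4450 without thinning, 4586 with scran, 5453 with TMM, 5615 with DESeq2 factors, 110 and 3892 with pseudocounts of 10 and 0.1, 793 against AC libraries, and 3827 and 516 at differences of 1 and 3. The median difference of all genes was -0.80 after thinning, -1.96 without it, -2.05 with scran, -2.55 with TMM and -2.65 with DESeq2 factors. Genes higher in every library numbered 76 when thinned to 120000 reads without N11, 199 with scran, 22 with TMM and 22 with DESeq2 factors, 20 over genes read in at least 10 libraries, 79 with the CA3-labelled members alone and 174 without N11 and N17. They numbered 35 to 77 with single libraries left out, the most without N11. Genes lower in every library numbered 295 with DESeq2 factors, 283 with the CA3-labelled members alone, 84 against all 14 CA3 libraries with Gad1 and Gad2 reads and 15 against 13 such AC libraries. The difference in detected genes was -1357 against AC and -1035 when 10 reads were asked. A rule limit of 5% left no library.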
